A study of Homo sapiens with 18 samples.

Results

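Wide H3K27ac domains are stretches of the genome in which acetylation of lysine 27 on histone H3 runs on without a break for 10 kb or more. The deposited H3K27ac intervals that overlap each other were merged into 30670 loci, and the 711 loci with a merged width of at least 10 kb were kept as wide domains. The rule used positions alone and no difference between treatments. The libraries came from MOLM-13, an established human line of acute myeloid leukemia that carries a rearranged KMT2A gene, and were made by Cut&Tag, in which an antibody guides a transposase to cut and tag DNA beside a chosen histone modification. Cells received 100 nM PR-957, an inhibitor of the immunoproteasome subunit PSMB8, or the solvent DMSO, for 72 h per the labels, although a legend of the study gives a shorter exposure for Cut&Tag. Each treatment had 2 libraries for each of H3K27ac, H3K27me3, H3K4me1 and H3K4me3, giving 16 libraries of 1 cell line. The labels do not say that replicates were separate cultures, so p-values measure the spread between these libraries only. The comparison asks how PSMB8 inhibition altered chromatin in these cells.

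H3K27ac marks active promoters and enhancers. Long acetylated stretches often lie over genes that are central to a cell's identity, or over dense runs of highly transcribed genes. H3K4me3 marks active promoters, H3K4me1 marks enhancers and the flanks of promoters, and H3K27me3 is the repressive mark set by Polycomb. In KMT2A-rearranged leukemia the fusion protein holds the HOXA genes and MEIS1 in an active state, and histone genes of the replication-dependent kind are transcribed in S phase from dense clusters on chromosome 6.

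The sequences that follow are the 120 bases before the start sites of 5 genes that lie in domains described further on: 3 histone genes, whose domains had lower H3K27ac in PR-957, MEIS1, whose domain was lower too, and TPM4, whose domain was higher. They come from RefSeq (GRCh38.p14), are written 5′ to 3′ on the gene's strand, and stop at the base before the start site. Capitals mark short motifs searched on both strands: the CCAAT box, the TATAAA box, the Sp1 motif GGGCGG, the AP-1 motif TGACTCA, the E-box CACGTG, the RUNX motif TGTGGT and the ETS motif GGAAGT. A motif on the other strand appears as its reverse complement, so that ATTGG stands for CCAAT and ACTTCC for GGAAGT.
H2AC13 at chr6:27808053-27808172, plus strand: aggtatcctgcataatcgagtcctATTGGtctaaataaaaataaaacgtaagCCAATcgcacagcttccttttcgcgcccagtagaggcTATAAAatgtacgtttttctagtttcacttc
H3C10 at chr6:27809931-27810050, plus strand: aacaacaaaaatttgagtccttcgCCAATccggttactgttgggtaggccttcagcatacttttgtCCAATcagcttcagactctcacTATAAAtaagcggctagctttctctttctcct
H1-5 at chr6:27867589-27867708, minus strand: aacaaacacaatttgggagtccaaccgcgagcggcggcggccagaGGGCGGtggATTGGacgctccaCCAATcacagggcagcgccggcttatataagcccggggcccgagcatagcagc
MEIS1 at chr2:66435005-66435124, plus strand: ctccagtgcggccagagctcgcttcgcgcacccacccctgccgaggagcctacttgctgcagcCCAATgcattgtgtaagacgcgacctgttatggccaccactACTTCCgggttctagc
TPM4 at chr19:16076375-16076494, plus strand: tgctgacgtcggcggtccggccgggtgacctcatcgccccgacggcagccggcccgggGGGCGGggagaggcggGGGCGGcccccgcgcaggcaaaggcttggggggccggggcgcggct

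The 3 histone windows each hold CCAAT on both strands or more than once, and the TPM4 window holds only GGGCGG. Among histone windows not printed, that of H2BC14 holds CCAAT on both strands and that of H4C9 holds a single CCAAT, both without TATAAA. Over the 250 bases before the start, 14 of 15 promoters of histone genes in wide domains held CCAAT and 12 held TATAAA, from 14 of the 17 histone genes that could be matched by symbol and position. Among all 35116 promoters of the RefSeq table on the assembled chromosomes, 32% held CCAAT and 10.7% held TATAAA. The GC-rich GGGCGG was in 2 of the 15 histone promoters, in 70.4% of 544 promoters of genes starting in any wide domain and in 42.6% of all promoters. Adjacent histone genes can share part of a window, so these promoters are not independent. A match is a description of letters and not evidence that a factor bound there.

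The 711 domains made up 2.32% of the H3K27ac loci but covered 10.5 of the 103 Mb of acetylated sequence, or 10.2%. Their median width was 12685 bp, with quartiles at 11065 and 16250.5 bp, against 2680 bp over all loci. Just inside the threshold lay 2 loci of 10005 bp, and just outside lay 2 of 9999 bp. Of the domains, 94 reached 20 kb and 22 reached 30 kb. Each domain was built from 2 to 22 deposited intervals, with a median of 6, and 468 of them held a single interval of 10 kb or more. A domain's H3K27ac level is the count on its widest interval, which spanned a median of 87.6% of the domain.

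Of the 10 widest domains, 5 held the start sites of protein-coding genes and 5 lay inside genes or away from them without such a start site. The widest, at chr8:133458429-133509828 and 51400 bp long, lay in the body of ST3GAL1, which encodes a sialyltransferase. The next, 49364 bp long at chr8:140532585-140581948, lay in the body of AGO2, which encodes the slicing Argonaute protein. At 46910 bp the third was chr7:27147352-27194261, holding the start sites of HOXA3, HOXA6, HOXA7, HOXA9, HOXA10 and HOXA11, homeobox genes that keep blood progenitors immature. A domain in the body of ZMIZ1, a transcriptional coactivator gene, followed with 45509 bp, and the MTSS2/VAC14 domain with 44486 bp. The MEF2D domain, over a gene for a MADS-box transcription factor, spanned 38670 bp, and the RXRA domain, over the gene for a retinoid X receptor, 37446 bp. The other 3, on chromosome 8, lay over PPP1R16A and its neighbors (41645 bp), in a gene-free stretch with SPIDR as its nearest protein-coding start site (40314 bp) and in the body of NDRG1 (39362 bp).

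Acetylation per kilobase was highest over other genes. With CPM (counts scaled to the size of each library) in the DMSO libraries divided by the interval's length, the domain of LINC02939 and MIRLET7BHG, the host of let-7 microRNAs on chromosome 22, led with 23.7 CPM per kb. The MIR23AHG domain, over the host of miR-23a, miR-27a and miR-24-2, had 22.3, and the domain of PTMA, the gene of the abundant nuclear protein prothymosin alpha, had 19.9. ACTB, the gene of cytoplasmic beta-actin, had 19.8 and the domain of BMI1 and COMMD3 had 19.1, BMI1 being a Polycomb gene that sustains self-renewal. The median over all domains was 2.86 CPM per kb, so these 5 stood well above the typical domain, and width and level per kilobase were only loosely related over the 711 domains (Spearman's rho 0.11, a description).

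A protein-coding start site lay in 374 domains, of which 116 held the start sites of 2 or more genes. A further 75 domains held only non-coding start sites, and 262 held none. Of the 337 domains without a protein-coding start site, 198 lay wholly inside a gene body, and the median distance to the nearest such start site was 21835 bp. The share with a protein-coding start site was 20.6% among loci under 2.5 kb, 41.3% from 2.5 to 5 kb, 45.1% from 5 to 10 kb and 52.6% in the wide domains. Shares on an H3K4me1 locus were 49.1%, 53.3%, 71.4% and 85.2% in the same order, and on an H3K4me3 locus 32.4%, 53.0%, 58.5% and 66.7%. Overlap with H3K27me3 was less frequent, at 8.32%, 7.06%, 7.51% and 12.0%. A longer interval overlaps any other feature more readily, and the part of length in these shares was not tested. Both H3K4 marks were present at 464 domains, H3K4me1 without H3K4me3 at 142, H3K4me3 without H3K4me1 at 10 and neither at 95.

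**Figure D1:**
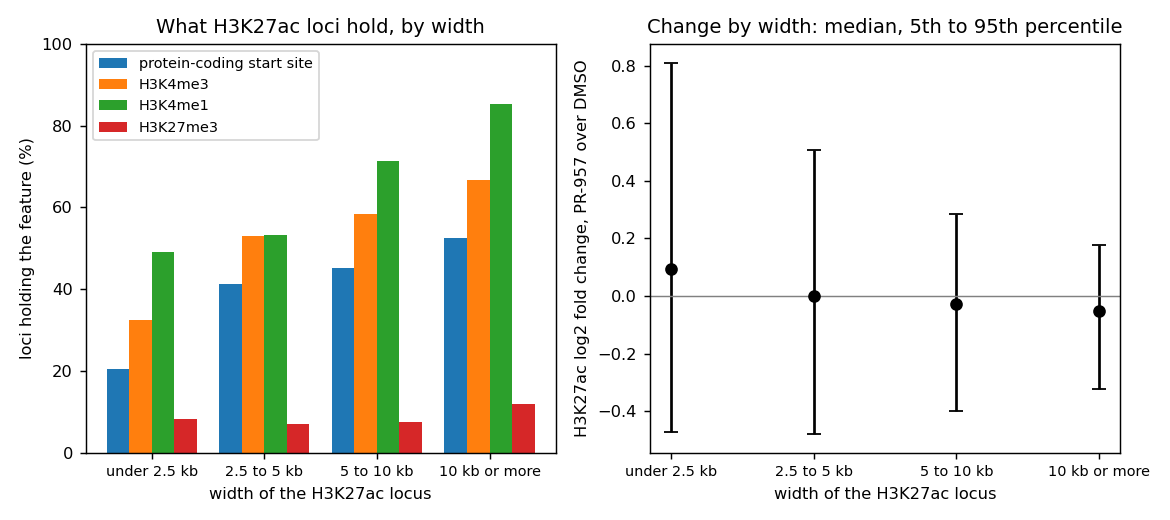
Left, the percentage of H3K27ac loci of each width class that hold a protein-coding start site or overlap a locus of another modification. Right, the H3K27ac log2 fold change (PR-957 over DMSO) of each class, with points for the median and bars from the 5th to the 95th percentile; the wide domains have the narrowest range and a median of -0.05.

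Domains were spread unevenly over the genome. Chromosome 8 held 139 domains, which was 19.5% of them, against 9.55% of all H3K27ac loci, and chromosome 19 held 120, or 16.9% against 6.40%. These 2 chromosomes carried 36.4% of all wide domains. Chromosome 19, the most gene-dense chromosome, had 20.5 domains per 10 Mb and chromosome 8 had 9.58, while chromosome 1 had 1.37. There was 1 domain on chromosome X, the one over MIR223, and none on chromosomes 21 and Y. Chromosome 8 held 6.51% of H3K4me1 loci and 4.33% of H3K4me3 loci. The median level of chromosome 8 loci was 1.52 CPM per kb against 1.73 on the other chromosomes. No copy-number measure was used here, and the part of chromosome dosage in these shares was not tested.

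Start sites of lineage markers were checked against the H3K27ac loci. All 6 defining myeloid markers (CD33, CSF1R, MPO, LYZ, SPI1 and CEBPA) had their start site on an H3K27ac locus, with MPO and CEBPA in wide domains. Of 5 B-lymphoid markers CD79A alone had a locus, and none of the 5 T-lymphoid and 4 erythroid markers did. In a longer list of myeloid surface receptors and granule proteins 23 of 39 genes had a locus, beside 10760 of 20020 protein-coding genes. Total counts per library ran from 9885836 to 14165777 for H3K27ac, from 10032503 to 12047958 for H3K27me3, from 15204186 to 30584219 for H3K4me1 and from 30070119 to 44591150 for H3K4me3. Levels below are CPM after trimmed-mean (TMM) scaling, and a change is the log2 fold change of PR-957 over DMSO with its standard error (SE) from edgeR's quasi-likelihood test, adjusted by Benjamini-Hochberg over all tested intervals of the mark at 0.05.

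Upon PR-957 treatment H3K27ac fell at 10 wide domains and rose at 1. Of these, 5 of the 10 held clustered histone genes, 2 held the KMT2A targets MEIS1 and HOXA3 to HOXA11, and the others lay over IER2 and STX10, over SNHG29 and over LINC02912 downstream of MYC. The domain that rose lay over TPM4. All the changes were modest, from -0.51 to 0.47 on the log2 scale. In edgeR 11 of 711 domains passed, or 1.55%, against 0.238% of all 74510 tested intervals and 0.163% of the widest intervals of all loci. Over all intervals 0.173% were lower and 0.0644% higher. By width, 0.0523% of loci under 2.5 kb, 0.106% from 2.5 to 5 kb and 0.541% from 5 to 10 kb passed, while the median count of a locus went from 30.75 through 72.75 and 162 to 382.75 in the wide domains. The greater count gives the wide domains a more precise comparison, and its part in their share of calls was not tested.

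The histone gene domains showed the clearest losses. The domain at chr6:27806459-27819148 holds the start sites of H2AC13, H2AC14, H2BC13, H2BC14 and H3C10, genes for the core histones H2A, H2B and H3. Its H3K27ac was 221 and 213 CPM in the DMSO libraries and 153 and 151 CPM in the PR-957 libraries. The groups were well apart, and the log2 fold change was -0.51 (SE 0.05, edgeR adjusted p = 8.3e-23). All 7 intervals deposited in it were lower and past the test. The intervals of a domain overlap and share reads, here and in the domains that follow, so such counts are not separate measurements.

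The domain at chr6:27137830-27148824 holds H2AC12, H2BC12 and H4C9. It measured 149 and 157 CPM in DMSO and 113 and 114 CPM after PR-957 (log2 fold change -0.43, SE 0.05, edgeR adjusted p = 2.4e-11). Its neighbor at chr6:27126289-27136578, with H2AC11 and H2BC11, measured 174 and 163 CPM against 139 and 136 CPM (log2 fold change -0.30, SE 0.05, edgeR adjusted p = 1.4e-05). Both PR-957 libraries lay below both DMSO libraries in each. At chr6:27861765-27875768, which holds the linker histone gene H1-5 with H2AC16, H3C11 and H4C13, the levels were 249 and 237 CPM against 195 and 190 CPM. This was a log2 fold change of -0.34 (SE 0.04, edgeR adjusted p = 8.5e-11). The last of the 5, at chr6:26018847-26029394 with H3C1, H4C1 and H4C2, went from 127 and 124 CPM to 101 and 99.4 CPM (log2 fold change -0.33, SE 0.06, edgeR adjusted p = 3.8e-05).

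All 5 wide domains with replication-dependent histone genes therefore had lower H3K27ac, with a median of -0.34 against -0.05 over all wide domains. They hold 17 of the 69 histone genes examined, and their GC content, from 42.4% to 45.7%, was low beside the median of 56.8% over domains. Of the 10 domains that fell, 7 were among the 102 with GC content under 50%. When the trend of the change on GC content was removed, 10 domains were lower and 1 higher, as before. The calls at H2AC11/H2BC11 and at H3C1/H4C1/H4C2 were lost without PR-957 replicate 2 (adjusted p = 0.172 and 0.171), whereas the other 3 held on leaving out each library in turn.

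**Figure D2:**
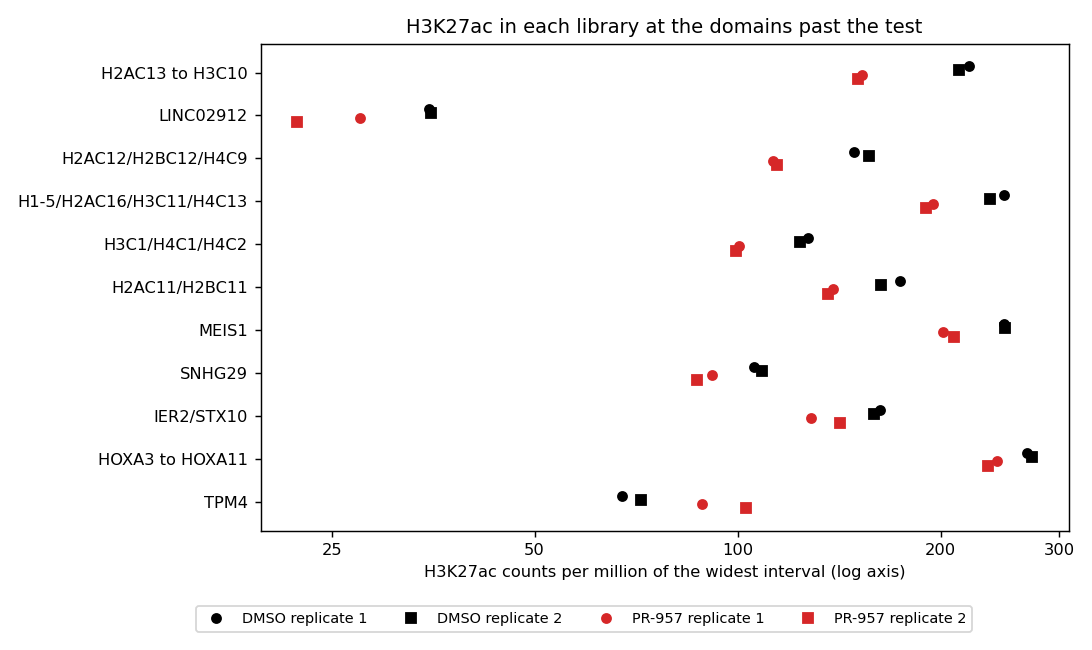
H3K27ac in CPM (log axis) of the widest interval in each library at the 11 domains past the test, with DMSO in black and PR-957 in red and each replicate as its own symbol. The red and black points do not overlap in any of the domains, with red above black only at TPM4. The domains were picked by the test on these same values, so this separation is not further evidence. Such separation held at 18.8% (lower) and 18.1% (higher) of all tested intervals.

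Among the KMT2A target genes named in the study, 8 of 21 started in a wide domain, in 3 domains. MEIS1 encodes a homeobox cofactor of HOXA9, and its domain at chr2:66432797-66447645 measured 248 and 249 CPM in DMSO and 201 and 209 CPM in PR-957. The fall was larger than the spread between libraries (log2 fold change -0.28, SE 0.04, edgeR adjusted p = 4.1e-07) and held on leaving out each library in turn. The HOXA domain measured 268 and 273 CPM against 242 and 235 CPM, a log2 fold change of -0.18 (SE 0.04, edgeR adjusted p = 0.0083). Of its 10 overlapping intervals 4 passed, all lower, and the call was lost without DMSO replicate 2 or PR-957 replicate 2 and under cyclic loess. FLT3, which encodes a receptor tyrosine kinase, measured 90.7 and 89.1 CPM against 81.4 and 85.8 CPM and did not pass (log2 fold change -0.10, SE 0.07, edgeR adjusted p = 0.75). The study named these genes for lower RNA in MOLM-13 cells treated with PR-957, so the direction at their domains is not independent evidence. From its Cut&Tag data, with tracks shown at HOXA and MEIS1, the study reported that it detected no change in histone modifications tied to the KMT2A complex.

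The remaining falls were at genes of other kinds. IER2 encodes an immediate early nuclear protein and STX10 a syntaxin of the Golgi, and their domain at chr19:13146964-13158108 measured 163 and 159 CPM in DMSO and 129 and 142 CPM in PR-957 (log2 fold change -0.25, SE 0.05, edgeR adjusted p = 0.0020). SNHG29 is a host of small nucleolar RNAs, and its domain at chr17:16436794-16450292 went from 106 and 109 CPM to 91.5 and 87.1 CPM (log2 fold change -0.27, SE 0.06, edgeR adjusted p = 0.014). Both pairs of groups stayed apart, yet both calls were lost under cyclic loess and on leaving out DMSO replicate 1 or either PR-957 library, and that of SNHG29 also without DMSO replicate 2.

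LINC02912 is a long non-coding RNA gene in the enhancer-rich stretch beyond MYC. Its domain, chr8:127930706-127952868, had the lowest level of those that passed, with 34.8 and 35.1 CPM in DMSO and 27.6 and 22.2 CPM in PR-957 (log2 fold change -0.50, SE 0.11, edgeR adjusted p = 0.0095). Of its 12 overlapping intervals only 1 passed, and all 12 were below 0. The call was lost without DMSO replicate 1, DMSO replicate 2 or PR-957 replicate 2. It was 1 of 7 domains whose nearest protein-coding start site was that of MYC, at distances from 54722 to 283167 bp. In the 7, H3K27ac changes ran from -0.50 to 0.03 with 6 below 0, where 66.1% of all wide domains were below 0. The other 6 domains did not pass.

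TPM4 encodes a tropomyosin that steadies actin filaments. Its domain at chr19:16073153-16086591 measured 67.4 and 72.0 CPM in DMSO and 88.6 and 103 CPM in PR-957, with a log2 fold change of 0.47 (SE 0.07, edgeR adjusted p = 2.1e-08). Of its 6 overlapping intervals 4 passed, all higher. The call was lost without PR-957 replicate 2, the higher of the PR-957 libraries (adjusted p = 0.250).

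Leaving out PR-957 replicate 2 left 4 of the 11 domains past the test, which were 3 histone domains and MEIS1. These 4 were also past it under every other alternative whose width limit kept them. Counting a domain as changed when any of its intervals passed gave 15 domains, 14 lower and 1 higher. The 4 extra domains lay over MEF2D, over CBX5 and HNRNPA1, over MTSS2 and VAC14, and near CHD7. Their intervals that passed were all lower, but each domain also held intervals above 0. The highest values were 0.14, 0.28, 0.09 and 0.19 in that order. At CBX5 and HNRNPA1 only 1 of 7 intervals passed. CBX5 encodes the heterochromatin protein HP1 alpha and HNRNPA1 an RNA-binding splicing factor. At MTSS2/VAC14 only 1 of 16 intervals passed, while the widest interval of the domain did not (log2 fold change -0.10, SE 0.07, edgeR adjusted p = 0.79).

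The other gene lists held fewer changes. Among 53 genes listed as hematopoietic transcription factors, 8 had a wide domain, and none passed. Values ran from -0.26 at LYL1 to -0.01 at CEBPD, with a median of -0.10. The 8 include ZFP36L2, which encodes an RNA-binding protein. All 8 were below 0, where 66.1% of all wide domains were. LYL1, a stem cell basic helix-loop-helix factor, measured 48.8 and 45.2 CPM against 40.9 and 38.3 CPM. CEBPA, the factor that drives granulocyte differentiation, measured 114 and 111 CPM against 106 and 112 CPM, so its groups overlapped.

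Of 39 myeloid surface receptors and granule proteins, 3 had a wide domain and none passed. MPO, the gene of the neutrophil granule enzyme myeloperoxidase, had 24.7 and 25.6 CPM in DMSO and 17.1 and 19.7 CPM in PR-957. The groups were apart, but the test across all intervals did not call it (log2 fold change -0.44, SE 0.13, edgeR adjusted p = 0.16). CD68, a macrophage lysosomal glycoprotein, had -0.05, and SRGN, the granule proteoglycan serglycin, had 0.05.

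Among 32 immediate early and AP-1 genes, 6 had a wide domain, of which only that of IER2 passed. The domain of FOS, an AP-1 subunit, measured 88.7 and 94.9 CPM against 99.0 and 103 CPM (log2 fold change 0.14, SE 0.06, edgeR adjusted p = 0.51), and JUNB, ZFP36, JUND and PIM3 lay from -0.07 to 0.04. The 3 domains of 22 NFE2L2 antioxidant targets had values above 0, and none passed. They were MAFG, a small MAF partner of NFE2L2, at 0.19, TKT, the pentose phosphate enzyme transketolase, at 0.08, and FTL, the ferritin light chain, at 0.05.

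Of 20 RNA genes listed, 19 were annotated and 9 started in a wide domain. The list was chosen with earlier results of these data known, so this share is not set against that of protein-coding genes. MIR142 and MIR142HG share a domain, as do MIR223 and MIR223HG, so the genes are not separate cases. The 9 domains of these RNA genes lay over MIR142, MIR223, PVT1 (3 domains), MIR21, MIR23AHG, NEAT1 and MALAT1. None passed for H3K27ac. The domain of MIR223, a microRNA of granulocytes, measured 76.4 and 78.6 CPM against 64.3 and 66.5 CPM (log2 fold change -0.24, SE 0.07, edgeR adjusted p = 0.15). That of MIR21 measured 44.95 and 41.03 CPM against 51.1 and 52.3 CPM (log2 fold change 0.26, SE 0.09, edgeR adjusted p = 0.27). Neither passed, and such separation of 2 libraries from 2 was common, at 18.8% (lower) and 18.1% (higher) of all intervals. No proteasome subunit gene of 37 and no lymphoid or erythroid gene of 21 started in a wide domain, although 31 of the proteasome genes had an H3K27ac locus of some width.

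**Figure D3:**
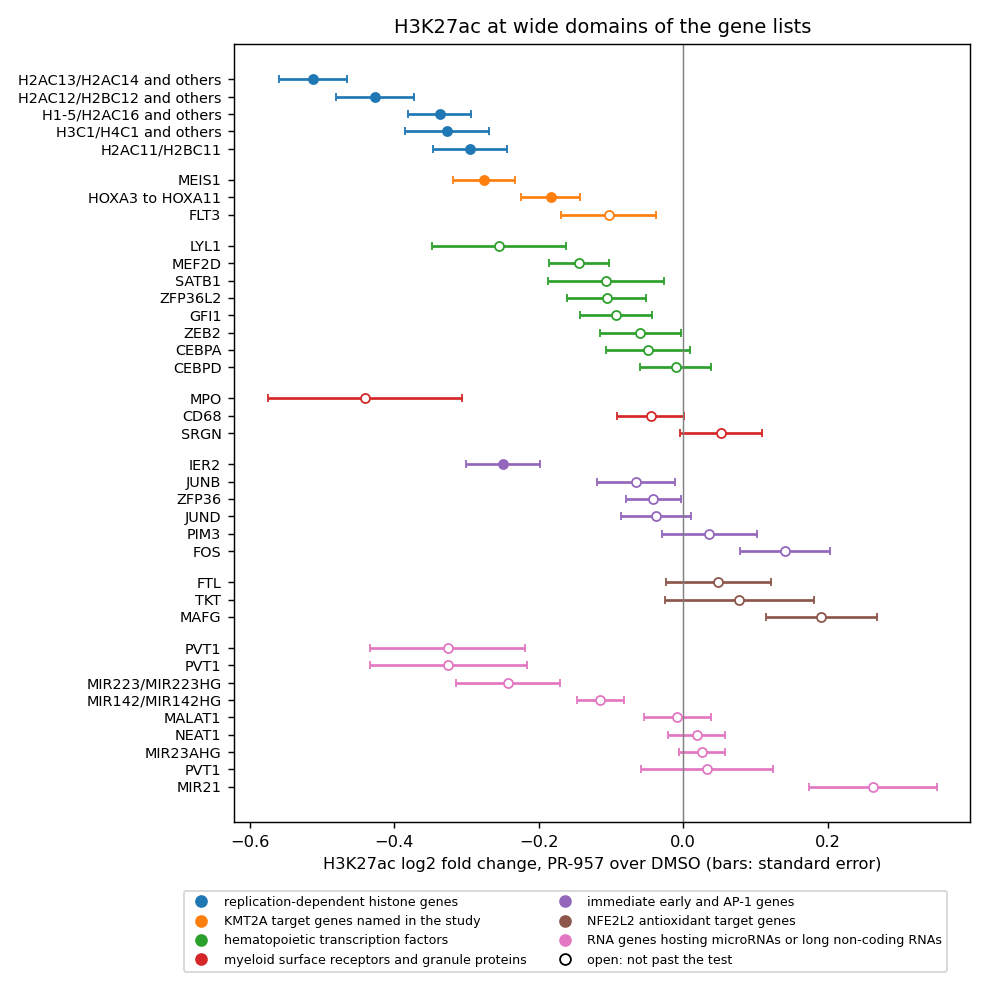
H3K27ac log2 fold change (PR-957 over DMSO) with its standard error at the wide domains of 7 gene lists, by color; filled points passed the test and open points did not. The 5 histone domains, MEIS1, HOXA3 to HOXA11 and IER2 are the filled points, all below 0.

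Over all 711 domains the H3K27ac change was small and leaned below 0. The median was -0.05, with a 5th percentile of -0.32 and a 95th of 0.18, and 470 domains, or 66.1%, were below 0 against 50.0% of all intervals tested. Both PR-957 libraries lay below both DMSO libraries in 223 domains and above them in 96, where the same pattern held at 18.8% and 18.1% of all intervals. The medians went from 0.09 under 2.5 kb through 0.00 and -0.03 to -0.05 with width. Under cyclic loess, which removes trends of the change with the level of an interval, these 4 medians were 0.02, 0.03, 0.02 and -0.01, so the order was not kept. It was kept by median-of-ratios factors and by library size only (0.10, 0.01, -0.02 and -0.04). The median under 2.5 kb was 0.02 without PR-957 replicate 2 and 0.01 at a mean count of at least 50. A change beyond 1.5-fold occurred at 1 domain (0.141%), against 1.95% of loci from 5 to 10 kb, 6.05% from 2.5 to 5 kb and 14.2% under 2.5 kb. The median count went from 382.75 in the wide domains to 30.75 under 2.5 kb, and its part in these shares was not tested.

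By class, the median change was -0.03 at domains with a protein-coding start site, -0.07 with only non-coding ones and -0.10 with none. In the same order, 8 lower and 1 higher of 374 domains passed, 2 lower of 75, and none of 262, beside 1.55% of all domains. The median DMSO level was 3.87, 2.44 and 2.05 CPM per kb in these classes, and the part of level in the calls was not tested. Wide domains took 12.2% of the counts on the widest intervals of all loci in each DMSO library, and 11.9% and 11.7% in the PR-957 libraries. The difference in means, 12.2% ± 0.044 against 11.8% ± 0.104 (SD, n = 2 each), was -0.40 percentage points. A two-sided exact permutation test gave p = 0.333, the smallest that 2 against 2 allows, so the test cannot pass in this design.

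H3K27me3 lay on 85 wide domains, and 77 had an interval with enough counts to test. It rose at 6 domains and fell at 2, or 10.4%, against 5.92% of all 31806 tested intervals, of which 5.09% were lower and 0.824% higher. Counted by distinct H3K27me3 interval, 7 of 76 passed, because 2 of the domains that rose share 1 interval. The HOXA domain had the strongest fall. Its H3K27me3 interval, chr7:27143866-27263758, reaches past the domain on both sides and measured 3992 and 3809 CPM in DMSO and 3025 and 2746 CPM in PR-957 (log2 fold change -0.43, SE 0.04, edgeR adjusted p = 2.2e-16). H3K27ac on the domain and H3K27me3 on this longer interval were both lower. The H3K27me3 count cannot place its fall within the acetylated stretch. Under cyclic loess the H3K27me3 interval turned to 0.10 (edgeR adjusted p = 0.0093).

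H3K27me3 also fell at the domain of BMP1 and SFTPC, genes of a procollagen protease and a lung surfactant protein, at chr8:22159602-22170730. The levels were 415 and 421 CPM against 367 and 345 CPM (log2 fold change -0.23, SE 0.05, edgeR adjusted p = 2.2e-04), and under cyclic loess the value was 0.17 (edgeR adjusted p = 0.0032). By library size only it was -0.07 and did not pass (edgeR adjusted p = 0.305), and the call was also lost without DMSO replicate 2. Adjacent domains on chromosome 14, over CRIP2 and over CRIP1 and TEDC1, share 1 H3K27me3 interval, chr14:105470806-105488321. It rose from 226 and 233 CPM to 319 and 299 CPM (log2 fold change 0.43, SE 0.05, edgeR adjusted p = 3.0e-11) and was higher under every alternative run. CRIP1 and CRIP2 encode small LIM-domain proteins. The direction of the mark over the domains depended on the scaling in part, since library size alone gave 17 higher and 1 lower, cyclic loess 32 higher and none lower, and the median of 0.19 became 0.47 under cyclic loess, 0.11 with the GC trend removed, 0.12 without PR-957 replicate 1 and 0.09 at domains of 15 kb or more.

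H3K4me1 could be tested at 606 domains and passed at 16, with 14 lower and 2 higher. This was 2.64% of the domains against 1.94% of all 108158 tested intervals, of which 0.699% were lower and 1.24% higher. The direction did not hold across scalings: cyclic loess gave 1 lower and 22 higher, and removing the trend on GC content gave 1 lower and 7 higher. DESeq2 called none, where 112 domains had an unadjusted p under 0.05 in edgeR. The median change was -0.13, with 77.7% of domains below 0, and became 0.06 under cyclic loess and -0.01 with the GC trend removed. By library, 5 domains passed when DMSO replicate 1 was left out, 2 when PR-957 replicate 1 was, and 9 when PR-957 replicate 2 was.

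The domain with the smallest p was that of SBNO2, a helicase-like regulator of inflammatory genes, at chr19:1166002-1178326. Its H3K4me1 rose from 13.5 and 12.9 CPM to 19.1 and 21.7 CPM (log2 fold change 0.63, SE 0.12, edgeR adjusted p = 3.0e-04), and it was higher and past the test in every alternative but DESeq2 (adjusted p = 0.138). MAFG and SIRT7 share a domain at chr17:81916078-81929668, where H3K4me1 was 46.0 and 46.2 CPM against 28.0 and 34.4 CPM (log2 fold change -0.55, SE 0.12, edgeR adjusted p = 0.0013). That call was lost without PR-957 replicate 1, in DESeq2 and with the GC trend removed. H3K4me1 was also lower at a domain whose nearest protein-coding start site is that of SDC1 (-0.56), and at MAP2K3, the gene of a kinase of the p38 pathway (-0.51). Both of these were lost without DMSO replicate 2, without PR-957 replicate 1, under cyclic loess, in DESeq2 and with the GC trend removed, the first also without DMSO replicate 1 and the second also without PR-957 replicate 2.

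H3K4me3 changed little over the wide domains. Of 474 tested domains, 2 passed, or 0.422%, against 0.226% of all 59229 tested intervals, of which 0.0456% were lower and 0.181% higher. The domain of GPR183, an oxysterol receptor that guides the migration of immune cells, lies at chr13:99302222-99314104. There H3K4me3 rose from 11.4 and 10.9 CPM to 17.5 and 15.6 CPM (log2 fold change 0.57, SE 0.10, edgeR adjusted p = 1.9e-05) and was past the test under every alternative. Its H3K27ac was 21.5 and 23.3 CPM in DMSO and 27.4 and 23.2 CPM in PR-957, with overlapping groups. At the AGO2 domain, chr8:140623314-140638244, H3K4me3 was 49.8 and 54.6 CPM against 43.9 and 41.9 CPM (log2 fold change -0.28, SE 0.07, edgeR adjusted p = 0.044), a call lost on leaving out any of the 4 libraries.

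At the 11 domains with changed H3K27ac the other marks mostly did not pass. H3K4me3 was testable at 10 of them and ran from -0.17 at HOXA3 to HOXA11 to 0.24 at TPM4, with no call. At the 5 histone domains H3K4me3 lay from -0.13 to 0.06 and H3K4me1 from -0.29 to 0.05, beside H3K27ac from -0.51 to -0.30. Thus no change in either H3K4 mark passed at the histone domains, which does not show that they were level. Only 2 of the 11 domains overlapped an H3K27me3 locus, and of these HOXA was past the test for both H3K27ac and H3K27me3. Over the wide domains the changes of H3K27ac were only weakly related to those of H3K4me3 (Spearman's rho 0.17, n = 474 domains) and of H3K4me1 (-0.02, n = 606), as a description across regions of the same cells.

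**Figure D4:**
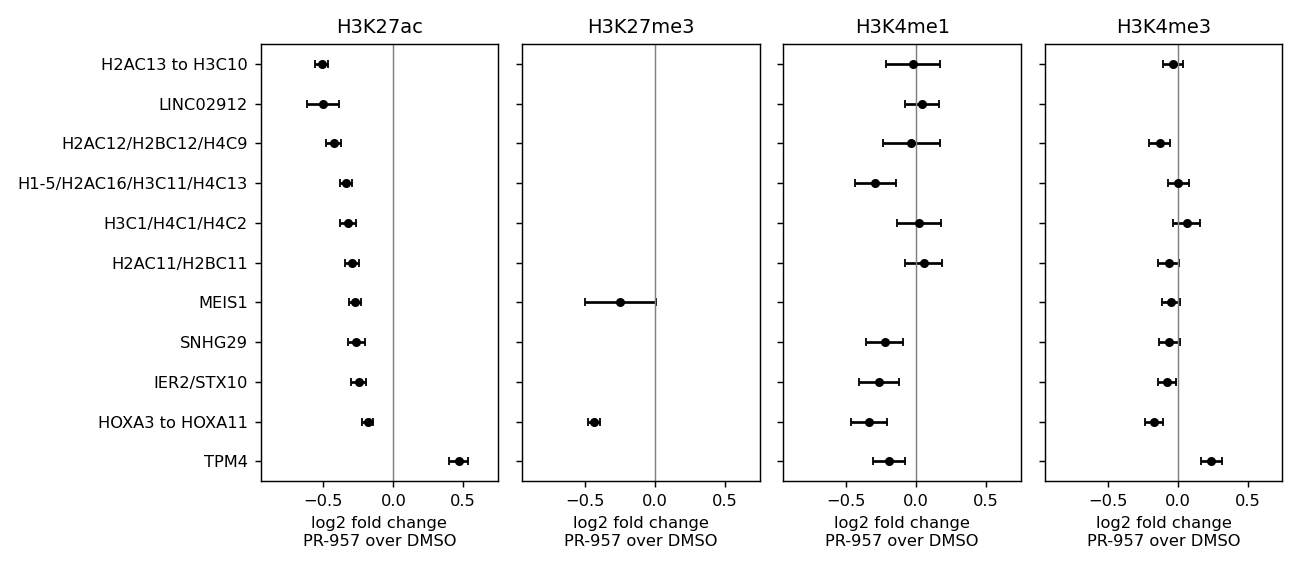
Log2 fold change (PR-957 over DMSO) with its standard error for the 4 modifications at the 11 domains with changed H3K27ac; a missing point means that no interval of that mark was tested. H3K27ac lies below 0 at 10 domains. Of the 2 that overlap an H3K27me3 locus, HOXA3 to HOXA11 is the one where H3K27me3 also passed the test.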

How the data were processed

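Cut&Tag libraries were compared by PR-957 against DMSO within each modification. Per the labels and methods, the authors aligned reads to hg38 with Bowtie2 (2.2.5 in the submitters' processing notes) and called peaks with MACS2 or SEACR (1.3). The deposited values are unnormalized counts per interval, and no source used here states how the interval lists were pooled and counted. The 2 IgG samples are not analysed here. Intervals were kept with filterByExpr (minimum count 10), scaled by TMM and tested with glmQLFit and glmQLFTest of edgeR 4.0.16 in R 4.3.3, on the whole table of each mark, and the script was tested on simulated data. A domain took its widest H3K27ac interval, or for another mark the interval sharing most bases with it, and genes were assigned by GENCODE release 44 start sites inside the domain. Starts were taken as 0-based and are printed 1-based. Alternatives covered scaling (limma 3.58.1 cyclic loess), DESeq2 1.42.0, count filters, width limits, a replicate block, leaving out each library, and GC trend removal, the last chosen after seeing the data. Domains named were the 10 widest, the 5 densest, up to 8 lower and 8 higher by p, those of the gene lists, the 4 with the smallest p for other marks and the 4 widest without a start site. SNHG29, LINC02912, GPR183's H3K27ac and the domains with single changed intervals were named after their values were seen. The members and lists were chosen with earlier results of these data known.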

Additional observations from a re-analysis of the deposited data

How the results depend on the processing

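The count of wide domains with changed H3K27ac was 11, between 9 and 15 under the other scalings, DESeq2, filters and domain definitions except a 15 kb limit (2), and between 4 and 11 on leaving out each library. H3K27me3, with 8, gave 18 by library size only, 32 under cyclic loess, 15 at a mean count of at least 50, 5 with the GC trend removed, 13 at 8 kb, 3 at 15 kb and 4 to 7 on leaving out each library. It reversed under cyclic loess at HOXA3 to HOXA11 (0.10) and BMP1/SFTPC (0.17). H3K4me1, with 16, gave 0 in DESeq2 (112 at an unadjusted p under 0.05 in edgeR), 8 with the GC trend removed, 6 at 15 kb and 2 to 11 on leaving out each library. H3K4me3, with 2, gave 4 by library size only, 0 at 15 kb (39 domains of all widths had an unadjusted p under 0.05), 1 under cyclic loess, in DESeq2, with 1 interval per locus or with the interval of highest mean count, and 1 to 2 on leaving out each library. The cause of these changes was not tested. There were 218 domains at the 15 kb limit and 1263 at the 8 kb limit, against 711 at 10 kb. With the replicate number as a block, the counts were 12, 6, 12 and 2 for H3K27ac, H3K27me3, H3K4me1 and H3K4me3. Deviations of same-numbered libraries correlated at -0.002, -0.010, -0.007 and 0.14, the last (H3K4me3) above the others, and with 2 pairs and no shared origin in the labels the libraries were treated as unpaired. DESeq2 gave no adjusted p where it filtered on low means, and gave one for 253 of the H3K27ac domains. The share of counts in wide domains kept its direction under the domain definitions and libraries tried. Of 479 values of single named domains under alternatives, 328 kept their direction and call, 149 kept only their direction and 2 reversed.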
